A study of Rattus norvegicus with 18 samples.

Results

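The AP-1 genes Fos, Fosb, Fosl1, Fosl2, Jun, Junb and Jund and the related stress gene Atf3 were followed across 18 arrays of rat brain cortex. The members were found by the gene name on the array or by the rat symbol of a probe's transcript accession; this found all 8 genes among the 24278 gene names tested. They were measured by 9 of the 41012 probes, 1 for each gene and 2 for Jund. All 9 were among the 28634 probes tested, those called well above background by the scanner software on all 3 arrays of 1 group or more. The study asked how erythropoietin (EPO), a cytokine hormone best known for driving red cell production, alters the transcript response to cerebral ischemia. Ischemia was produced by middle cerebral artery occlusion (MCAO), a rat model of stroke.

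All animals were male rats of the outbred strain Crl:CD(SD)BR weighing 250 to 280 g, and no genetic change separated the groups. The ischemic rats had MCAO and received either EPO or saline. The sham-operated rats are labelled as having no treatment, so the sham groups differ from the saline groups in the occlusion and in the saline. Cortex was taken at 6 h or at 2 h, which gave 6 groups of 3 arrays. Age, the dose and timing of EPO, the length of the occlusion and the side or depth of cortex sampled are not given in the sources used here. The labels do not say whether each array came from a separate animal, so every p-value measures the spread between these arrays, which may be partly technical.

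Proteins of the Fos and Jun families carry a basic leucine zipper, through which they pair into the AP-1 dimer and bind DNA; Jun proteins can pair with each other, whereas Fos proteins need a partner such as Jun. Fos, Fosb, Jun and Junb are immediate-early genes, transcribed within minutes of a stimulus from factors already present in the cell, and Fosl1 and Fosl2 are usually induced more slowly. Jund is made in most resting cells. Atf3 belongs to the ATF/CREB family, can pair with Jun proteins, and is induced by many kinds of cell stress. In the cortex, neuronal firing, spreading depolarisation and injury are known inducers of these genes.

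Each value below is a relative signal on the log2 scale: the processed intensity of the probe minus the 75th percentile of its own array. Relative signals are compared only within a probe, since different probes have different brightness. Changes were tested with limma, in 1 model of 6 group means over the 18 arrays, with Benjamini-Hochberg adjustment over all 28634 probes, and a call means an adjusted p under 0.05. The arrays lay on 5 slides. On 6 arrays the slope of signal on the amount of spiked-in transcript was above 0.9 (0.914 to 0.941), and fewer spots were well above background there (62.7% to 67.6%) than on the other 12 (slopes 0.788 to 0.866, 69.5% to 81.3%). These 6 arrays are EPO replicate 3, saline replicates 1 and 3 and sham replicate 1 at 6 h, and EPO replicate 1 and saline replicate 1 at 2 h. All 4 arrays of the slide scanned on another day are among them. Sham replicate 1 at 2 h had the lowest slope, and 7 of the 9 member probes were at their sham 2 h maximum on it. In the marker check, 10 of 11 cortical neuron markers were on the array. All 10, among them Neurod6 and Slc17a7, were well above background on every array by the best probe of each gene. The same held for all 9 striatal neuron, 9 oligodendrocyte and 8 astrocyte markers, so detection alone does not tell cortex from striatum. Because cortex is a mixed tissue, fewer cells of a type and less RNA per cell cannot be told apart in any value below.

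At 6 h after MCAO, 7 of the 9 member probes were called higher in the EPO arrays than in sham, against a background of 6.53% of all probes called higher (16.1% in either direction). In the saline arrays at 6 h, 6 of 9 were called higher, against 4.79% (11% in either direction). At 2 h, 7 of 9 were called higher in the EPO arrays, against 1% (1.33% in either direction), and 7 of 9 in the saline arrays, against 0.898% (1.24% in either direction). No member was called lower, against 9.59% of all probes with EPO and 6.26% with saline at 6 h, and 0.332% with EPO and 0.346% with saline at 2 h. The ischemic arrays were higher than sham without overlap for 8 of 9 member probes with EPO (11.8% of all probes) and 6 of 9 with saline (10.9%) at 6 h. The same held at 2 h for 9 of 9 with EPO (7.61%) and 9 of 9 with saline (6.67%). The median member change was 1.27 with EPO and 1.16 with saline at 6 h, and 1.92 with EPO and 1.93 with saline at 2 h, where the median over all probes was 0 and -0.13 at 6 h and -0.07 and -0.07 at 2 h. Fosl1 is counted as called and as not overlapping in each of these comparisons with sham. Its probe passed the filter only through the ischemic groups, so the counts and medians include a probe whose sham level is poorly measured. The EPO and saline comparisons use the same 3 sham arrays at each time, so they are not independent of each other.

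**Figure D1:**
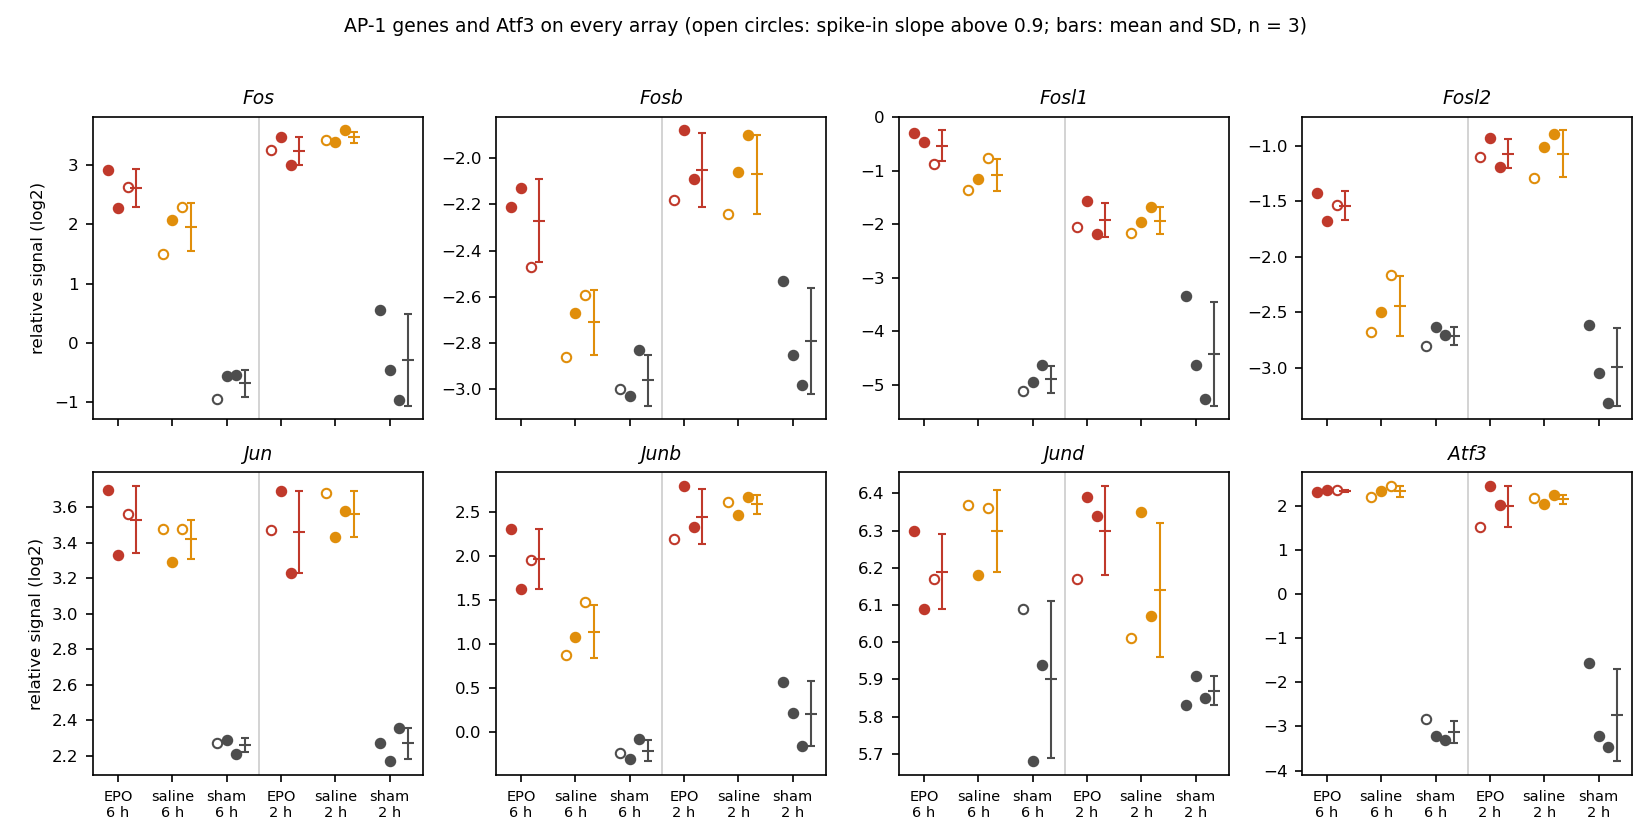
Relative signal (log2 processed intensity minus the array's 75th percentile) of 1 probe per gene on all 18 arrays, with EPO, saline and sham groups at 6 h on the left and at 2 h on the right of each panel. Points are arrays, open where the spike-in slope was above 0.9, and bars give the group mean and SD (n = 3). For Atf3 the 12 ischemic arrays lie between 1.51 and 2.45, above all 6 sham arrays, while for Fosl2 the saline arrays at 6 h reach down among the sham arrays.

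Fos encodes the founding member of the Fos family and is the most widely used transcript marker of recent neuronal activation. At 6 h its relative signal was 2.92, 2.28 and 2.63 on the EPO arrays, 1.51, 2.08 and 2.30 on the saline arrays, and -0.95, -0.56 and -0.54 on the sham arrays. The 2 h arrays read 3.25, 3.47 and 3.01 with EPO, 3.42, 3.40 and 3.59 with saline, and 0.55, -0.46 and -0.96 in sham. Every ischemic array lay above every sham array of its time, and the EPO and saline arrays overlapped at both times. Fos was 9.79-fold higher with EPO than in sham at 6 h (95% interval 6.12 to 15.7, adjusted p = 1.78e-05 in limma) and 6.27-fold higher with saline (3.92 to 10, adjusted p = 0.000172). Without the arrays of high slope, which leaves 1 saline array at 6 h, the saline change was 2.63 and not called (adjusted p = 0.115), where 2.65 underlies the fold given. At 2 h Fos folds were 11.6 with EPO (7.23 to 18.5, adjusted p = 6.88e-05) and 13.5 with saline (8.46 to 21.6, adjusted p = 3.67e-05). In the order of group means, the 2 h ischemic groups stood highest and overlapped each other, the 6 h ischemic groups came next and overlapped each other, and the sham groups were lowest and overlapped.

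Fosb encodes a Fos protein whose truncated form, made by splicing, is long-lived in neurons; the single probe does not say which form it measured. At 6 h Fosb stood at -2.21, -2.13 and -2.47 on the EPO arrays, at -2.86, -2.67 and -2.59 on the saline arrays and at -3.0, -3.03 and -2.83 on the sham arrays. In the 2 h groups the EPO arrays had -2.18, -1.88 and -2.09, the saline arrays -2.24, -2.06 and -1.90, and the sham arrays -2.53, -2.85 and -2.98. All EPO arrays at both times and all saline arrays at 2 h were above their sham arrays, whereas the saline arrays at 6 h overlapped with sham. The change against sham was 0.69 ± 0.14 with EPO (SE, adjusted p = 0.00368) and 0.25 ± 0.14 with saline at 6 h (adjusted p = 0.291). The 2 h change was 0.74 ± 0.14 with EPO (adjusted p = 0.0134) and 0.72 ± 0.14 with saline (adjusted p = 0.017). Of 33 alternative settings, 8 lost the 2 h call with EPO and 9 that with saline, among them the fit with the slide as a block (adjusted p = 0.162 with EPO and 0.0608 with saline). Leaving out 1 array ended the call with EPO for sham replicate 2 (adjusted p = 0.0687), sham replicate 3 (0.0663) and EPO replicate 2 (0.0823), and with saline for sham replicates 2 (0.0819) and 3 (0.0824) and saline replicates 2 (0.0599) and 3 (0.0948). With normexp background correction the 2 h changes were 0.47 with EPO (adjusted p = 0.113) and 0.45 with saline (adjusted p = 0.135).

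Fosl1 encodes Fra-1, a Fos protein without the strong activation domain of Fos. Its probe was well above background on all 12 ischemic arrays and on 1 of 3 arrays in each sham group, so it passed the filter only through the ischemic groups, the sham level is poorly measured, and the intervals and p-values below do not carry that uncertainty. At 6 h Fosl1 measured -0.29, -0.47 and -0.87 with EPO, -1.37, -1.15 and -0.77 with saline, and -5.12, -4.94 and -4.64 in sham. The 2 h values were -2.05, -1.57 and -2.18 with EPO, -2.17, -1.96 and -1.68 with saline, and -3.35, -4.63 and -5.26 in sham. The ischemic arrays were above the sham arrays throughout, and each 6 h ischemic array was above every 2 h ischemic array. Against sham, Fosl1 was 20.5-fold higher with EPO (11.8 to 35.7, adjusted p = 7.04e-06) and 14-fold higher with saline at 6 h (8.05 to 24.3, adjusted p = 3.25e-05). It was 5.6-fold higher with EPO (3.22 to 9.73, adjusted p = 0.00313) and 5.57-fold higher with saline at 2 h (3.21 to 9.68, adjusted p = 0.00286). Without the 6 arrays of high spike-in slope, the 2 h changes were 2.54 with EPO (adjusted p = 0.137) and 2.59 with saline (adjusted p = 0.132), and neither was called. The same setting left 1 saline array at 6 h, where the change was 3.64 and not called either (adjusted p = 0.0838). With normexp background correction Fosl1 kept its calls, with smaller changes of 3.16 with EPO and 2.67 with saline at 6 h, where the folds above correspond to 4.36 and 3.81, and of 1.36 and 1.35 at 2 h, where they correspond to 2.49 and 2.48. Quantile normalization gave larger changes at 2 h, 3.14 with EPO and 3.12 with saline.

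Fosl2 encodes Fra-2, the other Fos protein without a strong activation domain. At 6 h the relative signal of Fosl2 was -1.42, -1.68 and -1.53 on the EPO arrays, -2.68, -2.50 and -2.16 on the saline arrays and -2.80, -2.63 and -2.70 on the sham arrays. On the 2 h arrays it was -1.10, -0.93 and -1.19 with EPO, -1.29, -1.01 and -0.89 with saline, and -2.61, -3.05 and -3.32 in sham. The 2 h ischemic groups lay together and far above sham, while at 6 h the EPO arrays lay apart from the saline arrays, which overlapped with sham. Fosl2 was 2.25-fold higher with EPO than in sham at 6 h (1.74 to 2.9, adjusted p = 0.000523), and the saline change at 6 h was 0.27 ± 0.17 (adjusted p = 0.391). Its fold at 2 h was 3.8 with EPO (2.94 to 4.9, adjusted p = 6.88e-05) and 3.81 with saline (2.95 to 4.92, adjusted p = 5.5e-05). With normexp background correction Fosl2 kept these calls with smaller changes. They were 1.39 with EPO and 1.42 with saline at 2 h, where the folds correspond to 1.92 and 1.93. At 6 h the EPO change was 0.98, where the fold corresponds to 1.17.

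Jun encodes c-Jun, a Jun protein that is activated by the JNK kinases. Its probe was printed 10 times on each array, and the SD between these spots was 0.04 to 0.15 on the log2 scale. At 6 h Jun stood at 3.70, 3.33 and 3.56 with EPO, at 3.48, 3.29 and 3.48 with saline and at 2.27, 2.29 and 2.21 in sham. The 2 h EPO arrays had 3.47, 3.69 and 3.23, the saline arrays 3.68, 3.43 and 3.58, and the sham arrays 2.27, 2.17 and 2.36. The 12 ischemic arrays formed 1 band between 3.23 and 3.70, in which neighbouring groups overlapped, above all 6 sham arrays (2.17 to 2.36). The change was 1.27 ± 0.12 with EPO (adjusted p = 1.56e-05) and 1.16 ± 0.12 with saline at 6 h (adjusted p = 4.82e-05), or 2.41-fold and 2.23-fold, and without the arrays of high slope the saline change was 1.03 and not called (adjusted p = 0.117). The 2 h change was 1.20 ± 0.12 with EPO (adjusted p = 0.000123) and 1.30 ± 0.12 with saline (adjusted p = 5.99e-05), or 2.29-fold and 2.45-fold.

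Junb encodes a Jun protein with weaker activating power than c-Jun, which can hold c-Jun back. At 6 h Junb had relative signals of 2.30, 1.62 and 1.95 with EPO, 0.87, 1.08 and 1.47 with saline, and -0.24, -0.30 and -0.08 in sham. The 2 h signals were 2.19, 2.79 and 2.33 with EPO, 2.61, 2.46 and 2.66 with saline, and 0.57, 0.22 and -0.16 in sham. All ischemic arrays were above their sham arrays, and at 6 h the 3 EPO arrays were above the 3 saline arrays. Junb was 4.48-fold higher with EPO (3.23 to 6.21, adjusted p = 2.88e-05) and 2.54-fold higher with saline at 6 h (1.83 to 3.52, adjusted p = 0.00169). Without the arrays of high slope the saline change at 6 h was 1.27, close to the 1.35 behind that fold, and not called (adjusted p = 0.25). The folds at 2 h were 4.67 with EPO (3.37 to 6.48, adjusted p = 0.000118) and 5.15 with saline (3.71 to 7.14, adjusted p = 6.14e-05).

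Jund encodes the Jun protein found in most resting cells, and its change was the smallest of the 8 genes in 3 of the 4 comparisons with sham, the exception being saline at 6 h. The brighter of its 2 probes read 6.30, 6.09 and 6.17 with EPO, 6.37, 6.18 and 6.36 with saline and 6.09, 5.68 and 5.94 in sham at 6 h. The 2 h readings were 6.17, 6.39 and 6.34 with EPO, 6.01, 6.35 and 6.07 with saline, and 5.83, 5.91 and 5.85 in sham. No ischemic array fell below a sham array of its time, and the lowest EPO array at 6 h equalled the highest sham array to 2 decimals. The change at 6 h was 0.28 ± 0.11 with EPO (adjusted p = 0.109) and 0.40 ± 0.11 with saline (adjusted p = 0.0349), and the saline call was lost in 12 of 33 alternative settings, among them the fits with the replicate number (adjusted p = 0.0598) or the slide as a block (adjusted p = 0.0644). It was also lost without sham replicate 2 (adjusted p = 0.144), sham replicate 3 (0.0758), saline replicate 1 (0.111) or saline replicate 3 (0.121). For 2 h it was 0.44 ± 0.11 with EPO (adjusted p = 0.0871) and 0.28 ± 0.11 with saline (adjusted p = 0.333), and with the slide as a random block the EPO change was called (0.46, adjusted p = 0.0475). The second Jund probe gave 0.26 ± 0.21 with EPO (adjusted p = 0.53) and 0.43 ± 0.21 with saline at 6 h (adjusted p = 0.248), and it was not called in any comparison.

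Atf3 had the largest fold change of the 8 genes against sham in all 4 comparisons. At 6 h its relative signal was 2.31, 2.35 and 2.35 with EPO, 2.20, 2.33 and 2.45 with saline, and -2.83, -3.21 and -3.31 in sham. On the 2 h arrays it read 1.51, 2.44 and 2.01 with EPO, 2.18, 2.05 and 2.24 with saline, and -1.56, -3.22 and -3.46 in sham. The ischemic arrays formed 1 band at both times and with both treatments, and the 2 h sham arrays were spread more widely than any other group (SD 1.04). Atf3 was 43.9-fold higher with EPO (25.2 to 76.6, adjusted p = 1.26e-06) and 43.7-fold higher with saline at 6 h (25 to 76.2, adjusted p = 2.2e-06). The gene was 26.6-fold higher with EPO (15.3 to 46.4, adjusted p = 3.27e-05) and 29.9-fold higher with saline at 2 h (17.1 to 52.1, adjusted p = 1.65e-05). Among all 28634 probes ordered by change, Atf3 ranked 6 with EPO and 5 with saline at 6 h, and 6 with EPO and 5 with saline at 2 h. On the log2 scale the changes were 5.46 with EPO and 5.45 with saline at 6 h, and 4.73 and 4.90 at 2 h. Normexp background correction lowered them to 4.86 and 4.86 at 6 h and to 4.15 and 4.31 at 2 h, and leaving out sham replicate 1 raised the 2 h changes to 5.33 with EPO and 5.49 with saline.

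**Figure D2:**
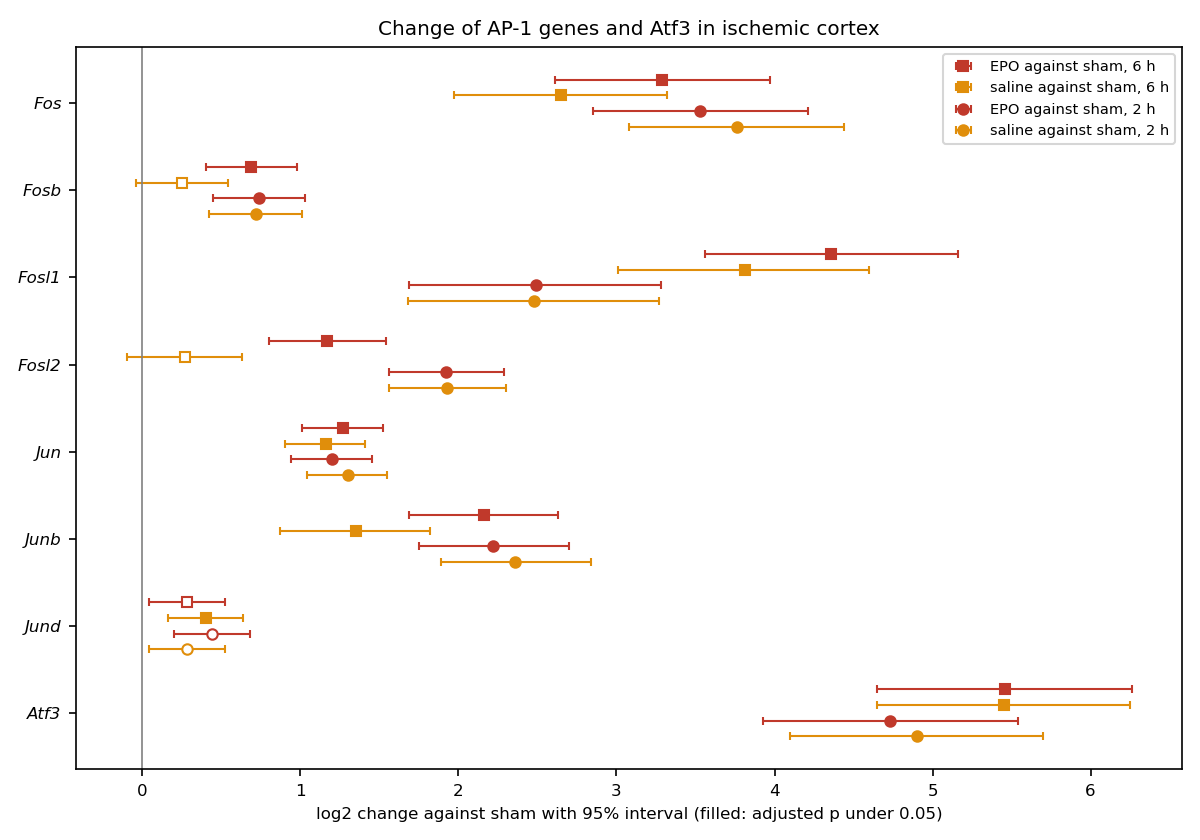
Log2 change of each gene against the sham arrays of the same time, with EPO and with saline at 6 h (squares) and at 2 h (circles); bars are 95% intervals from limma and filled symbols mark an adjusted p under 0.05. Atf3 lies furthest to the right in all 4 comparisons, Jund lies between 0.28 and 0.44, and Fosl2 with saline at 6 h (0.27) stands apart from its other 3 values.

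The comparisons with sham were also made within slides. At 6 h the slides that carried both groups carried arrays of the same slope class, and within them the Atf3 difference was 5.18 to 5.57 with EPO and 5.29 to 5.54 with saline. The Fos difference was 2.84 to 3.58 with EPO and 2.64 to 3.25 with saline, over 2 slides each, and the Junb difference 1.92 to 2.19 with EPO and 1.38 to 1.71 with saline. At 2 h the 1 slide with EPO and sham gave 5.47 for Atf3, 3.96 for Fos and 2.49 for Junb. The 3 slides with saline and sham at 2 h gave 3.74 to 5.70 for Atf3, 2.88 to 4.54 for Fos and 2.04 to 2.82 for Junb, and the smallest of these came from the slide that paired a saline array of high slope with sham replicate 1. These slides gave 0.28 to 1.08 for Fosb, 1.18 to 3.58 for Fosl1, 1.32 to 2.42 for Fosl2 and 1.22 to 1.41 for Jun. With saline at 6 h Fosb differed by 0.36 to 0.41, Fosl1 by 3.80 to 4.35, Fosl2 by 0.13 to 0.64 and Jun by 1.00 to 1.21. With EPO at 6 h the brighter Jund probe gave 0.08 to 0.41 and the second -0.05 to 0.28.

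The promoters of Junb, called higher in all 4 comparisons with sham, and of Jund, called in 1, are printed here to show what the sequence of a strongly and of a weakly moving Jun gene holds before its start site. They come from RefSeq, build GRCr8, 5′ to 3′ in the direction of the gene, and end at the base before the annotated start: Junb chr19:40080876-40081125 on the plus strand and Jund chr16:18769772-18770021 on the minus strand. Capitals mark matches to the motifs searched.
Junb: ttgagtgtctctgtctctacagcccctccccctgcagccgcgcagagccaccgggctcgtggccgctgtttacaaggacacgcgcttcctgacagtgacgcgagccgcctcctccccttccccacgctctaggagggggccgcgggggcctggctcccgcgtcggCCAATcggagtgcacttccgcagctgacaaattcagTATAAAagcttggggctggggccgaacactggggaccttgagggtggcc
Jund: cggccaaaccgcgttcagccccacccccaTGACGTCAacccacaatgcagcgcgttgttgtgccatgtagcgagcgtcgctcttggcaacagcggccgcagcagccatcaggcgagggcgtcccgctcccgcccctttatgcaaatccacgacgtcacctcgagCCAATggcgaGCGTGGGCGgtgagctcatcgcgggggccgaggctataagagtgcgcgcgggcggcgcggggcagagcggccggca

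Both strands of the 300 bases from 250 before to 50 after each start were searched for 7 motifs. These were the AP-1 site TGANTCA, the cyclic AMP response element TGACGTCA, the C/EBP-ATF element TGATGNAA, the EGR site GCGTGGGCG, the CCAAT box CCAAT, the TATA box TATAAA, and the CArG box, to which serum response factor binds. Junb held a CCAAT box at -85 to -81 and a TATA box at -49 to -44. Jund held the cyclic AMP response element at -221 to -214, a CCAAT box at -86 to -82 and the EGR site at -76 to -68. No matches overlapped. Among the 33469 promoters of the same length in the table, 7.33% held the AP-1 site, 1.83% the cyclic AMP response element, 3.98% the C/EBP-ATF element, 0.544% the EGR site, 37.5% the CCAAT box, 14.2% the TATA box and 1.64% the CArG box. Promoters of 5 of the 8 members were matched by symbol: beside these, Fosb held 1 TATA box match, on the minus strand, and Fosl1 and Fosl2 held none of the 7 motifs in this window. Fos, Jun and Atf3 were not matched. These matches describe the letters only.

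EPO was set against saline in ischemic cortex to ask what the treatment changed. At 6 h no member probe was called, and none of the 28634 probes was (0%), while 1184 probes had an unadjusted p under 0.05 in limma. The 3 EPO arrays lay above the 3 saline arrays for Fosl2, Junb and Fosb, which is 3 of 9 member probes, against 5.21% of all probes with the EPO arrays higher without overlap. Fosl2 was 0.90 higher with EPO (95% interval 0.53 to 1.27, unadjusted p = 0.000139, adjusted p = 0.778 in limma). Junb was 0.82 higher (0.35 to 1.29, unadjusted p = 0.0024) and Fosb 0.44 higher (0.15 to 0.73, unadjusted p = 0.00612), each with the same adjusted p of 0.778. With normexp background correction the differences were 0.67 for Fosl2, 0.78 for Junb and 0.31 for Fosb. Over all alternatives they lay between 0.67 and 1.05 for Fosl2, 0.65 and 0.99 for Junb, and 0.14 and 0.54 for Fosb, and none was called.

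The other 5 genes overlapped between EPO and saline at 6 h. Fos differed by 0.64 (-0.03 to 1.32), Fosl1 by 0.55 (-0.24 to 1.35), Jun by 0.11 (-0.14 to 0.37) and Atf3 by 0.01 (-0.80 to 0.81), each EPO minus saline on the log2 scale. The brighter Jund probe differed by -0.12 (-0.36 to 0.12). All these intervals include 0, and those of Atf3 and Fosl1 are the widest.

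EPO and saline arrays of 6 h shared 3 slides, and on 2 of them the arrays had the same slope class. On these the Fosl2 difference was 0.82 and 0.63, the Junb difference 0.53 and 0.48, the Fosb difference 0.54 and 0.12, and the Fos difference 0.20 and 0.33. On the slide where the saline array had a high slope and the EPO array did not, the differences were 1.26 for Fosl2, 1.43 for Junb, 0.65 for Fosb and 1.41 for Fos. The direction was the same on all 3 slides for these 4 genes, and the sizes were larger on the slide of unlike slopes; the part of slope in them was not tested. With the slide as a block the Fosl2 difference stayed 0.90 and its adjusted p was 0.602.

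The EPO and saline arrays of 2 h overlapped for every member probe, where 2.42% of all probes were higher and 1.77% lower without overlap. No probe of the array was called (0%), and 381 of all probes had an unadjusted p under 0.05 in limma. The differences, EPO minus saline, were -0.23 for Fos (-0.91 to 0.45), 0.00 for Fosl2 (-0.37 to 0.36), -0.14 for Junb (-0.61 to 0.33), -0.10 for Jun (-0.35 to 0.16) and -0.17 for Atf3 (-0.97 to 0.64), with adjusted p = 1 for each. The test of whether the EPO difference changed between the times, 6 h minus 2 h, gave 0.91 ± 0.24 for Fosl2 (unadjusted p = 0.00235, adjusted p = 0.92) and 0.96 ± 0.31 for Junb (unadjusted p = 0.0084, adjusted p = 0.92). Neither was called, nor was any other probe (0%), with 668 probes at an unadjusted p under 0.05.

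**Figure D3:**
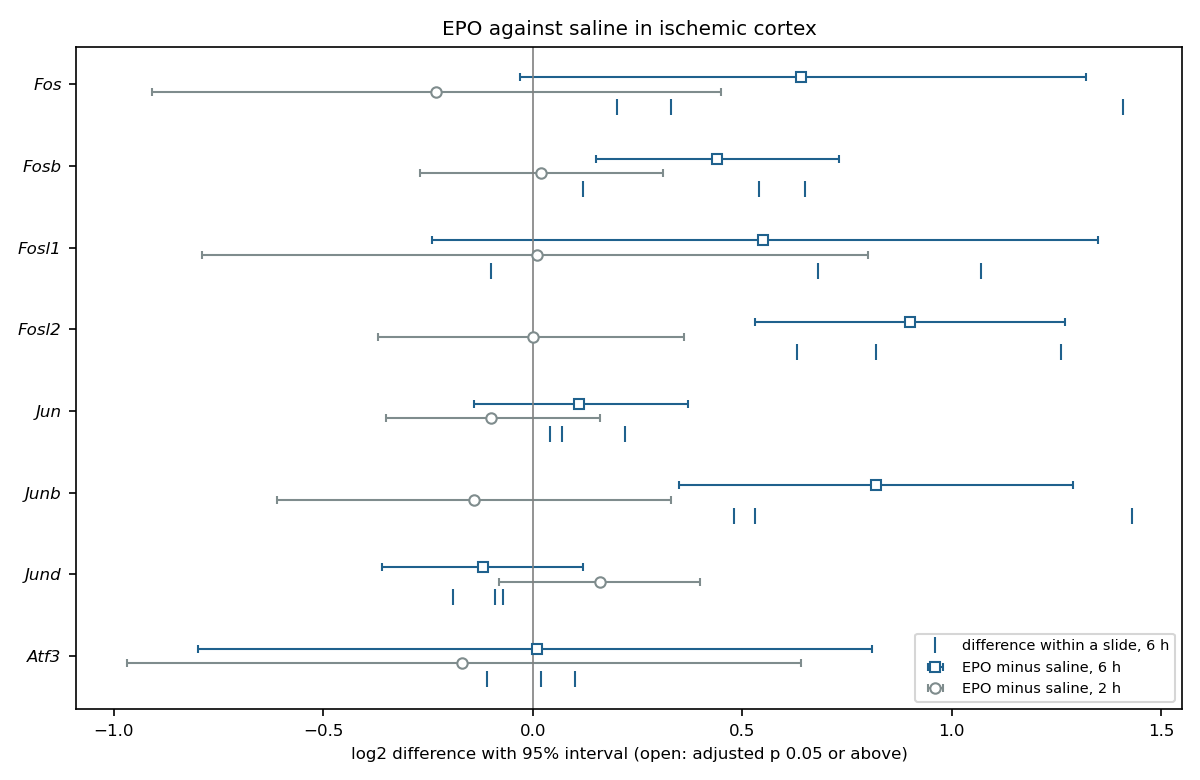
EPO minus saline (log2) for each gene in ischemic cortex at 6 h (squares) and 2 h (circles) with 95% intervals from limma; open symbols mark an adjusted p of 0.05 or above, and short strokes give the 6 h difference within each of 3 slides. At 6 h the intervals of Fosl2, Junb and Fosb lie above 0 while those of Fos, Fosl1, Jun, Jund and Atf3 include it, and no difference was called.

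The change with ischemia was compared between the times by an interaction test, 6 h minus 2 h. With saline, 1 of 9 member probes was called, against 1.43% of all probes: the Fosl2 change differed by -1.66 ± 0.24 on the log2 scale, lower at 6 h (adjusted p = 0.00436; 0.618% of all probes were called lower). With the slide as a block this was -1.68 (adjusted p = 0.0296), and without the arrays of high slope, which leaves 1 saline array at 6 h, it was -1.87 (adjusted p = 0.249). Normexp background correction made the Fosl2 difference smaller, -1.11, and it was still called (adjusted p = 0.017). The changes of Fos (-1.11 ± 0.44, adjusted p = 0.308), Junb (-1.02 ± 0.31, adjusted p = 0.151) and Fosb (-0.47 ± 0.19, adjusted p = 0.323) had the same sign and were not called. Fosl1 had the opposite sign (1.33 ± 0.52, adjusted p = 0.296) and the same poorly measured sham levels, and Jun (-0.14 ± 0.17) and Atf3 (0.55 ± 0.53) had intervals that include 0.

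With EPO no member was called in the same test, against 2.61% of all probes, with 4800 of all probes at an unadjusted p under 0.05 in limma. Fosl1, above background on 1 of 3 arrays in each sham group, gave 1.87 ± 0.52 (adjusted p = 0.077) and Fosl2 -0.76 ± 0.24 (adjusted p = 0.122). Fos (-0.24 ± 0.44), Junb (-0.06 ± 0.31), Fosb (-0.05 ± 0.19), Jun (0.07 ± 0.17) and Atf3 (0.72 ± 0.53) had intervals that include 0. The EPO and saline forms of this test share all 6 sham arrays.

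Sham cortex itself gave the baseline for these time comparisons. Between 6 h and 2 h sham arrays no member probe was called, against 0.482% of all probes, and 2587 of all probes had an unadjusted p under 0.05 in limma. All 9 member probes overlapped between the sham groups, where 7.3% of all probes were higher and 11.9% lower at 6 h without overlap. The differences ran between -0.48 ± 0.37 for Fosl1 and 0.28 ± 0.17 for Fosl2.

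**Figure D4:**
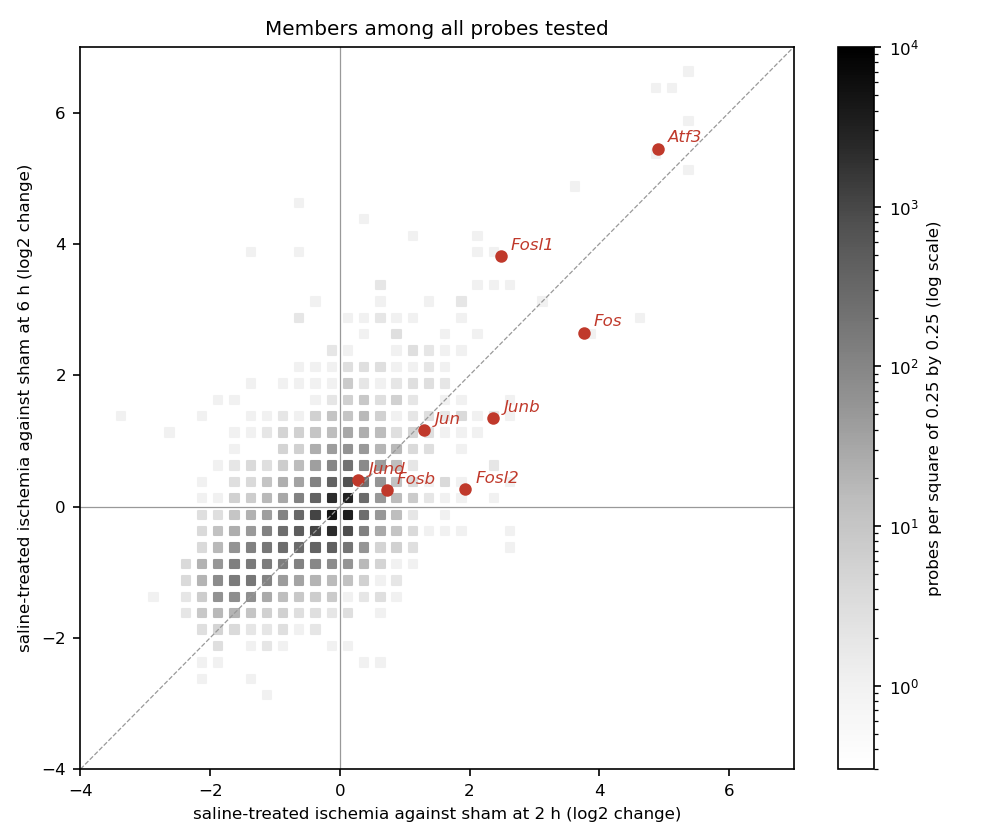
Log2 change with saline-treated ischemia against sham at 6 h (vertical axis) and at 2 h (horizontal axis) for all 28634 probes, drawn as squares of 0.25 by 0.25 shaded by their number on a log scale, with 1 probe for each of the 8 genes in red; the dashed line marks equal change. Atf3 (5.45 at 6 h and 4.90 at 2 h) and Fosl1 (3.81 and 2.48) lie above the line, Fos (2.65 and 3.76), Junb (1.35 and 2.36) and Fosl2 (0.27 and 1.93) below it, and of these differences only that of Fosl2 was called.

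Genes that pair with AP-1 proteins or resemble them, that act above them, or that are known as their targets were read from lists chosen with earlier results of these data known. Of 27 dimer partners and related leucine zipper factors, 24 were tested. At 6 h 10 were called higher with EPO and 7 with saline, and at 2 h 3 with each, with none lower. Over all 24278 gene names tested, 6.48% were called higher with EPO and 4.83% with saline at 6 h, and 1% and 0.906% at 2 h. The list's median change was 0.38 with EPO and 0.24 with saline at 6 h, and -0.02 and -0.09 at 2 h, where the medians over all gene names were 0 and -0.13, and -0.07 and -0.07.

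Cebpd, a C/EBP factor of the acute inflammatory response, changed by 1.91 ± 0.12 at 6 h with saline against sham (adjusted p = 1.76e-06) and by 1.21 ± 0.12 at 2 h (adjusted p = 0.000141). Cebpb, a related factor, changed by 0.98 ± 0.08 at 6 h (adjusted p = 1.42e-05) and by 0.77 ± 0.08 at 2 h (adjusted p = 0.000237). Crem, whose inducible product ICER represses cyclic AMP targets, changed by 0.80 ± 0.10 at 6 h (adjusted p = 0.000349) and by 1.14 ± 0.10 at 2 h (adjusted p = 6.11e-05). Ddit3, which encodes the stress factor CHOP, changed by 0.84 ± 0.08 at 6 h (adjusted p = 3.09e-05) and by 0.16 ± 0.08 at 2 h, where it was not called (adjusted p = 0.495). With the slide as a block, 9 partners were called higher with EPO and 7 with saline at 6 h, and 3 with each at 2 h.

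Upstream of AP-1, 25 of 31 listed kinases and factors were tested. At 6 h 4 were called higher and 2 lower with EPO, and 3 higher and 3 lower with saline, and at 2 h none was called with either, with 3450 (EPO) and 3320 (saline) of all probes at an unadjusted p under 0.05 in limma. Over all gene names tested at 6 h, 6.48% were called higher and 9.89% lower with EPO, and 4.83% higher and 6.4% lower with saline. With saline at 6 h Map2k3, a kinase that activates p38, changed by 0.67 ± 0.12 (adjusted p = 0.00294), and Map2k6, the other main p38 activator, by -0.73 ± 0.08 (adjusted p = 9.03e-05). Srf, which encodes serum response factor, changed by 0.30 ± 0.07 (adjusted p = 0.0114) and Rps6ka3, the kinase RSK2, by 0.43 ± 0.10 (adjusted p = 0.0125). With the slide as a block, 3 upstream genes were called higher and 1 lower with saline at 6 h. In that fit 1302 of all 28634 probes were called higher and 1796 lower. These are transcript levels and do not measure kinase activity.

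Of 30 genes known as AP-1 targets, 24 were tested. At 6 h 15 were called higher and 1 lower with EPO, and 14 higher with saline, and at 2 h 4 were higher with each. Over all gene names tested, 6.48% were called higher and 9.89% lower with EPO at 6 h, and 4.83% higher with saline. At 2 h 1% were called higher with EPO and 0.906% with saline. With the slide as a block, 15 targets were called higher and 1 lower with EPO, and 14 higher and 1 lower with saline at 6 h. At 2 h that fit called 4 higher with each. The list's median change was 1.09 with EPO and 0.78 with saline at 6 h, and 0.15 and 0.08 at 2 h. Ccl2, a chemokine that draws monocytes, changed by 4.93 ± 0.36 with saline at 6 h (adjusted p = 2.99e-06) and by 3.64 ± 0.36 at 2 h (adjusted p = 9.86e-05). Timp1, an inhibitor of matrix metalloproteinases, changed by 2.70 ± 0.19 at 6 h (adjusted p = 2.57e-06) and by 1.57 ± 0.19 at 2 h (adjusted p = 0.000545). Hmox1, which encodes the heme-degrading enzyme heme oxygenase, changed by 2.95 ± 0.17 at 6 h (adjusted p = 5.2e-07) and by 0.84 ± 0.17 at 2 h (adjusted p = 0.0303).

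Hbegf, a growth factor of the EGF family, changed by 2.02 ± 0.17 with saline at 6 h (adjusted p = 8.81e-06), and Ptgs2, the inducible prostaglandin synthase COX-2, by 2.06 ± 0.24 at 2 h (adjusted p = 0.000471). Within slides, the list's median difference from sham was 1.06 to 1.11 with EPO and 0.90 to 0.97 with saline at 6 h, and 0.34 with EPO (1 slide) and 0 to 0.29 with saline at 2 h. EPO against saline gave 0 calls in each of the 3 lists at both times, with a median target difference of 0.15 at 6 h and 0.05 at 2 h. These genes have other regulators beside AP-1, which was not measured as a protein here.

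**Figure D5:**
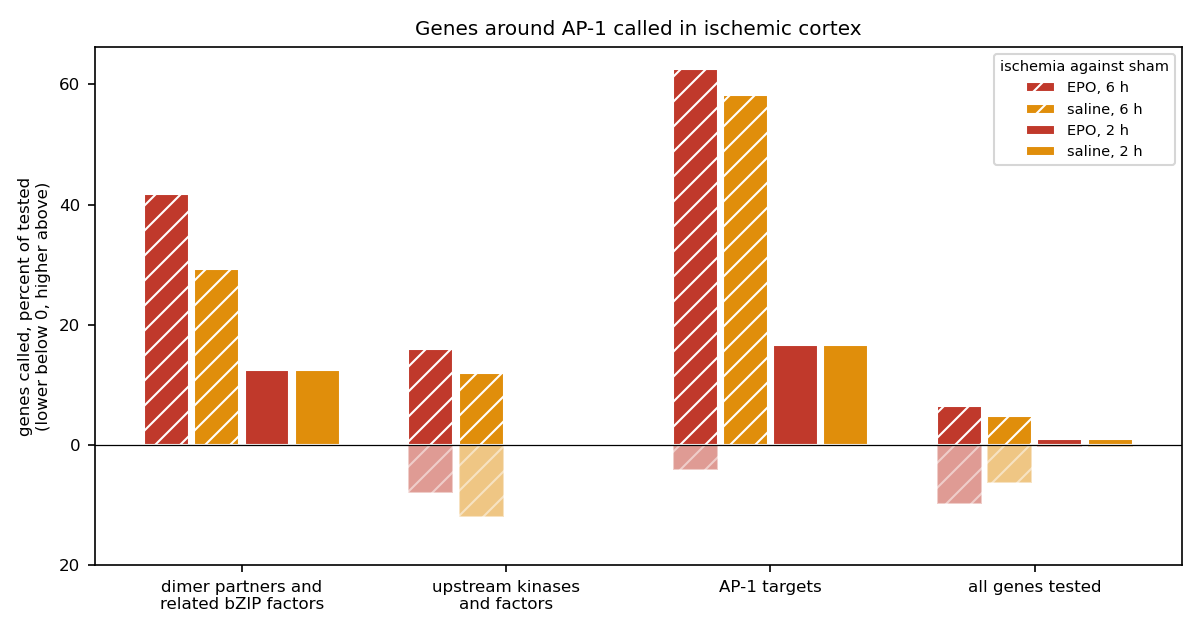
Share of tested genes called higher (above 0) and lower (below 0, paler) against sham in the 3 lists of AP-1 partners, upstream genes and targets and over all gene names tested, with EPO and saline at 6 h (hatched) and at 2 h (plain). Among the targets the higher share was 62.5% with EPO and 58.3% with saline at 6 h, and 16.7% with each at 2 h, where all gene names gave 6.48%, 4.83%, 1% and 0.906%.

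Some marker lists of other cells moved at 6 h, and others had few or mixed calls. Among all gene names tested, 6.48% were called higher with EPO and 4.83% with saline at 6 h. Of the 5 neutrophil markers tested, 2 were called higher with EPO and 2 with saline, and the mean relative signal of the 5 was -3.24 to -2.04 on the EPO arrays, -2.81 to -2.48 on the saline arrays and -4.38 to -3.30 on the sham arrays. By the best probe of each gene, which need not be the probe tested, detection differed among the 8 listed. The 5 tested (S100a8, S100a9, Csf3r, Il1r2 and Camp) were well above background on 16 to 18 of 18 arrays. Mpo, Mmp8 and Ngp, which were not tested, were so on 2, 2 and 5. Of the 9 striatal neuron markers, 7 were called higher with EPO and 2 with saline at 6 h, and with the slide as a block 7 and 5. EPO against saline called none of the 9 at 6 h, with a median difference of 0.08. The mean relative signals of the 9 at 6 h were 1.00 to 1.51 (EPO), 0.99 to 1.21 (saline) and 0.33 to 0.77 (sham). Penk is on both this list and the target list. At 2 h the striatal means were 0.88 to 1.06, 0.64 to 1.17 and 0.22 to 0.91 for EPO, saline and sham, with no call. Cortical neuron markers were called lower in 4 of 10 with EPO and 3 of 10 with saline at 6 h, and in 3 and 1 with the slide as a block, where 9.89% and 6.4% of all gene names were called lower without the block. At 6 h 4 of 9 endothelial markers were called lower with each, with 1 higher with EPO. Of 10 microglia and macrophage markers, 2 were called higher and 2 lower with EPO, and 1 higher and 2 lower with saline. Of 8 astrocyte markers, 1 was called higher and 2 lower with EPO, and 1 lower with saline. Of 9 oligodendrocyte markers, 2 were called higher with EPO and 1 with saline. None of the 5 red cell and choroid plexus markers tested was called with either. The part of these cells in the member values was not tested.

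Across the 18 arrays the 8 genes moved together: the Pearson correlation between pairs ran between 0.534 (Fosb and Jund) and 0.980 (Fos and Junb), with a median of 0.826. The arrays share the contrast of ischemia with sham, so these values describe the data and are not a test. By the Pearson correlation over the 18 arrays the members were compared with 12388 other gene symbols, the 8 members themselves left out. Of these, the most alike to Fos were C3h11orf96 (0.983), Ier2 (0.979), itself an immediate-early gene, and Crem (0.977). Fosl2 was most alike to Egr1 (0.993), Egr2 (0.962) and Egr4 (0.960), zinc-finger factors of the immediate-early class. Outside the members, Junb was most alike to C3h11orf96 (0.978), Egr4 (0.977) and Npas4 (0.970), a factor induced by neuronal activity. Its correlation with Fos, 0.980, was higher than these.

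Jun and Atf3 had another set of nearest genes outside the members. For Jun these were Ppp1r15a (0.971), which encodes GADD34 and restores translation after stress, Cxcl1 (0.968), a neutrophil chemokine, and Hspa1a (0.959), an inducible heat shock protein. Atf3 was most alike to Ppp1r15a (0.983), Cxcl2 (0.982), another neutrophil chemokine, and Cxcl1 (0.977). Over the 12 arrays of spike-in slope 0.9 or below, these correlations ran between 0.957 and 0.993.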

How the data were processed

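RNA of 18 cortex samples was hybridised to 1-colour Agilent rat arrays. Per the submitters' processing notes, spot intensities were made with Agilent Feature Extraction 9.1.1.1, and per the file headers the processed intensity is background-corrected. The authors' deposited value table holds unscaled log2 processed intensity and served as an alternative.

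Here outlier spots were left out, spots of a probe were averaged as log2 intensity, and each array's 75th percentile over non-control spots was subtracted. Probes were named by transcript accession, symbol or synonym (10735, 5577 and 3730 probes), otherwise by the file's name (20970). limma 3.58.1 in R 4.3.3 fitted 6 group means with 12 residual degrees of freedom, with two-sided moderated tests and Benjamini-Hochberg adjustment over 28634 probes, and the script was tested on simulated data. The number of arrays, 3 per group, limits the precision.

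The genes named are the 8 members and, outside them, the 3 genes most correlated with each of Fos, Fosl2, Jun, Junb and Atf3. From each list, up to 4 genes of smallest p with saline against sham at each time are named as well. The members and lists were chosen with earlier results of these data known. Alternatives covered background correction, scaling, filters, slide and replicate blocks, spike-in slope and leaving out arrays. Replicate numbers are shared between groups. Same-numbered arrays deviated together in all 3 pairs only between EPO and saline at 2 h (correlations 0.887, 0.654 and 0.635), where replicate 1 has a high spike-in slope in both groups.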

Additional observations from a re-analysis of the deposited data

Results flagged for a closer look

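The change of Fosl2 with saline-treated ischemia differed between the times by -1.66 ± 0.24 on the log2 scale, 6 h minus 2 h (SE, adjusted p = 0.00436 in limma). It is listed because the test of that difference passed the threshold. The change against sham was 0.27 at 6 h and 1.93 at 2 h. Normexp background correction lowered the 2 h change to 1.42 and the difference between the times to -1.11 (adjusted p = 0.017). With EPO the difference between the times was -0.76 ± 0.24 in the main fit (adjusted p = 0.122).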

How the results depend on the processing

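No alternative reversed a called direction. With only the arrays of the groups compared, 0 member probes were called with EPO and 2 with saline against sham at 2 h, where 7 were called with each. Fewer arrays then estimate the spread. The 2 h sham SD was 1.04 for Atf3, 0.97 for Fosl1 and 0.77 for Fos, but 0.09 for Jun. The part of either in the lost calls was not tested. With saline at 6 h the same setting lost only the Jund call (adjusted p = 0.105 in limma). Without the 6 arrays of high spike-in slope, 1 probe (Atf3) was called with saline at 6 h and 0 in the saline interaction (Fosl2, -1.87, adjusted p = 0.249); this leaves 1 saline array at 6 h, assumed to vary like the other groups. Quantile normalization gave 1 call, Fosl2, between the sham groups (0.64, adjusted p = 0.0398) and 1, Fosl2, in the EPO interaction (-1.19, adjusted p = 0.0041), and normexp gave 1 there, Fosl1 (1.8, adjusted p = 0.011); the cause was not tested. Leaving out 1 array at a time gave 7 to 7 calls with EPO and 5 to 6 with saline at 6 h, 6 to 7 with each at 2 h, 1 to 1 in the saline interaction and 0 to 1 in the EPO interaction (1 without sham replicate 3 at 2 h: Fosl1, 2.30, adjusted p = 0.0242), and 0 to 0 elsewhere. Both Fosl1 calls in the EPO interaction rest on poorly measured sham levels. Its probe was above background on 1 of 3 arrays in each sham group. With the replicate number as a block the counts were 7 with EPO and 5 with saline at 6 h, where Jund was lost (adjusted p = 0.0598), 7 with each at 2 h, 1 in the saline interaction and 0 elsewhere, EPO against saline included. Over all probes the count of calls moved far more: at 6 h it lay between 1763 and 5549 with EPO and 143 and 4195 with saline, where 4615 and 3164 are reported, and at 2 h between 3 and 448 with EPO and 34 and 634 with saline, where 382 and 356 are. The lowest counts came at 6 h without the high-slope arrays and at 2 h on only the arrays compared. Between sham groups the count was 0 to 214 (138 reported), in the saline interaction 0 to 756 (410) and in the EPO interaction 31 to 1024 (747). EPO against saline gave 0 at 6 h throughout and 0 to 1 at 2 h, as did its interaction. With normexp the calls at 6 h were 2094 higher and 1751 lower with EPO, against 1869 and 2746, and 1476 higher and 919 lower with saline, against 1372 and 1792. The slide as a random block gave 8 member calls with EPO at 2 h, Jund being the added one (0.46, adjusted p = 0.0475).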
